A study of Mus musculus with 12 samples.

Results

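The genes of the protein synthesis machinery were examined in a map of the RNA that eIF4G2 touches in mouse neurons. The set was chosen with earlier results of these data known. Its members were picked by gene symbol alone: ribosomal proteins, initiation, elongation and termination factors, and aminoacyl-tRNA synthetases. The few regulators whose symbols begin the same way were included. Of the 3366 named 5′ UTRs in the tag tables, 31 belonged to such genes. The GENCODE M21 annotation holds 192 protein-coding genes with symbols of this form, so most of the machinery was not listed.

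Translation of an mRNA begins when initiation factors bring the small ribosomal subunit to its 5′ end and guide it to the start codon. The large subunit then joins, elongation factors deliver aminoacyl-tRNAs, and release factors free the finished protein. Aminoacyl-tRNA synthetases supply the charged tRNAs. eIF4G2, also called DAP5, is a relative of the scaffold eIF4G that lacks the part that binds the cap-binding protein, and it serves initiation on selected mRNAs. Many ribosomal protein mRNAs carry a pyrimidine-rich 5′ end, the terminal oligopyrimidine (TOP) motif, through which their translation is adjusted as a group.

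In CLIP, ultraviolet light joins a protein to the RNA it contacts, the protein is immunoprecipitated, and the attached RNA fragments are sequenced as tags. Resting and depolarized primary cortical neurons from embryonic mice were compared, with 3 dishes per replicate. The depolarized neurons were held in tetrodotoxin and DL-AP5 for 2 h, which block sodium channels and NMDA receptors, then received 55 mM KCl for 1 h and recovered for 30 min. The resting neurons are described only as resting, and the labels do not say whether they also received the blockers. Both groups were given cycloheximide, which stalls ribosomes, for 2 min before harvest. The cells were whole cultures, so the tags are not those of dendrites or of 1 neuron class, and no input or control immunoprecipitation was among the samples.

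The distinct libraries numbered 11, 6 resting and 5 depolarized, because resting replicate 5 and depolarized replicate 5 held the same values throughout and were counted as 1 sample, a resting one. The libraries held 264 to 5240 tags on 5′ UTRs and 15767 in all. Of 8 neuronal marker genes 6 were listed, with 168 tags, of 4 astrocyte markers 0, of 4 oligodendrocyte lineage markers 0, and of 4 microglial markers 1, with 1 tag. Because a listed 5′ UTR is one that entered the tables, an unlisted marker is not shown to be absent from the cultures.

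The 31 genes fell into classes of unequal size. The initiation factors numbered 11, of 46 with such a symbol in the annotation. The ribosomal proteins numbered 8, of 90. There were 4 aminoacyl-tRNA synthetases, of 17, and 2 elongation factors, of 7. The termination factor Etf1 was 1 of 4. The remainder were regulators: Eif4ebp2 and Eif1ad for initiation, Eef2k and Eef1aknmt for elongation, and the ribosomal S6 kinase gene Rps6ka3.

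The hexamer CGCGGC, which the study names as a predicted eIF4G2 motif, was searched for on the sense strand of each 5′ UTR, taken as that of the longest protein-coding transcript in GENCODE M21. The tags were counted on UCSC 5′ UTRs, which need not be of the same isoform, and this holds for every length, sequence and per-kilobase value given here. It was found in 10 of the 31 genes (32.3%), against 36.8% of the 3335 5′ UTRs that have a sequence. Sites from initiation factors and ribosomal proteins are shown here so that the hexamer, in capitals, can be read with its surroundings (GENCODE M21, mouse build GRCm38). They lie at chr4:137993145-137993174 (plus strand, Eif4g3), chr12:111538185-111538214 (plus, Eif5), chr11:69921331-69921360 and chr11:69921186-69921215 (minus, Eif5a), chr5:134639430-134639459 (minus, the first of 2 sites in Eif4h), chr10:80292683-80292712 (plus, Rps15) and chr17:28328586-28328613 (plus, Rpl10a), each within 1 exon of the 5′ UTR.
Eif4g3: gtctcgacggacCGCGGCctcgggtgccgt
Eif5: gggtagcttgagCGCGGCggcggcgttgtt
Eif5a first site: ctagcacgcttgCGCGGCtgtcatagggct
Eif5a second site: agcagttgggctCGCGGCgagcggaccagg
Eif4h first site: cccaaggccgggCGCGGCggcgcgcgcatg
Rps15: agcttagaggagCGCGGCtcgcgcagctca
Rpl10a: ctttccggtttcCGCGGCagccgcagcc

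Most tags on these genes lay on 5′ UTRs without the hexamer. The 10 genes with CGCGGC held 21 of the 192 tags (10.9%), whereas over all those 3335 5′ UTRs 46.5% of tags lay on those with it. The 3 genes with the most tags, Aars, Eif4g2 and Eif6, have 0 copies, and Eif4g3, the next, has 1 copy in a 5′ UTR of 1040 bases. Aars alone held 91 tags, and without it 20.8% of the tags lay on 5′ UTRs with the hexamer. The tag tables give sums per 5′ UTR and not crosslinked positions, so a match does not place a tag.

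A TOP start, here a C followed by at least 4 pyrimidines, was found at the annotated start of 1 of the 31 genes (Eef1aknmt), against 2.04% of listed 5′ UTRs. The count depends on which annotated start is used. With any annotated transcript start it was 3 genes (9.68%, against 5.58% of listed 5′ UTRs), and within the first 5 bases it was 4 (12.9%, against 7.89%). For the 8 ribosomal proteins the counts were 0, 1 and 1 in turn. Annotated starts need not be the starts used in these cells. Of the 31 genes 23 had an entry among the RefSeq promoters, and 1 of them (4.35%) had a TOP start, against 3.01% of 27025 genes. That gene was Rpl28, a large-subunit protein, shown with its pyrimidine run in capitals after 10 upstream bases (GRCm38.p6, chr7:4792955-4792984, plus strand).
Rpl28: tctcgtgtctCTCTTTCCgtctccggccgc

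The 5′ UTRs of the 31 genes had a median length of 231 bases and a median GC content of 63.4%, against 306 bases and 65.9% over the 3335. The ribosomal proteins had the shorter ones, with a median of 151 bases, and the initiation factors a median of 339 bases. No 5′ UTR of the 31 genes overlapped an annotated small RNA gene. Those of Eif6, Eef1b2, Wars, Eif1ad and Rpl10a overlapped a gene on the other strand. Tags there could belong to either gene if strand was not used in counting, which the sources used here do not say. That of Rpl24 overlapped a transcript on the same strand, but Rpl24 had 0 tags.

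The tags were concentrated on few genes. The 31 genes made up 0.921% of the listed 5′ UTRs and held 192 tags, 1.22% of all. Aars accounted for 91 of these (47.4%), Eif4g2 for 31, Eif6 for 17 and Eif4g3 for 10. Of the other 27 genes, Eif3k and Rpl24 had 0 tags, 15 had 1 tag, and none had more than 5. Depolarized replicate 1, the deepest library, held 92 of the 192 tags (47.9%), against 33.2% of the tags on all 5′ UTRs, and for 9 genes it was the only library with a tag.

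**Figure D1:**
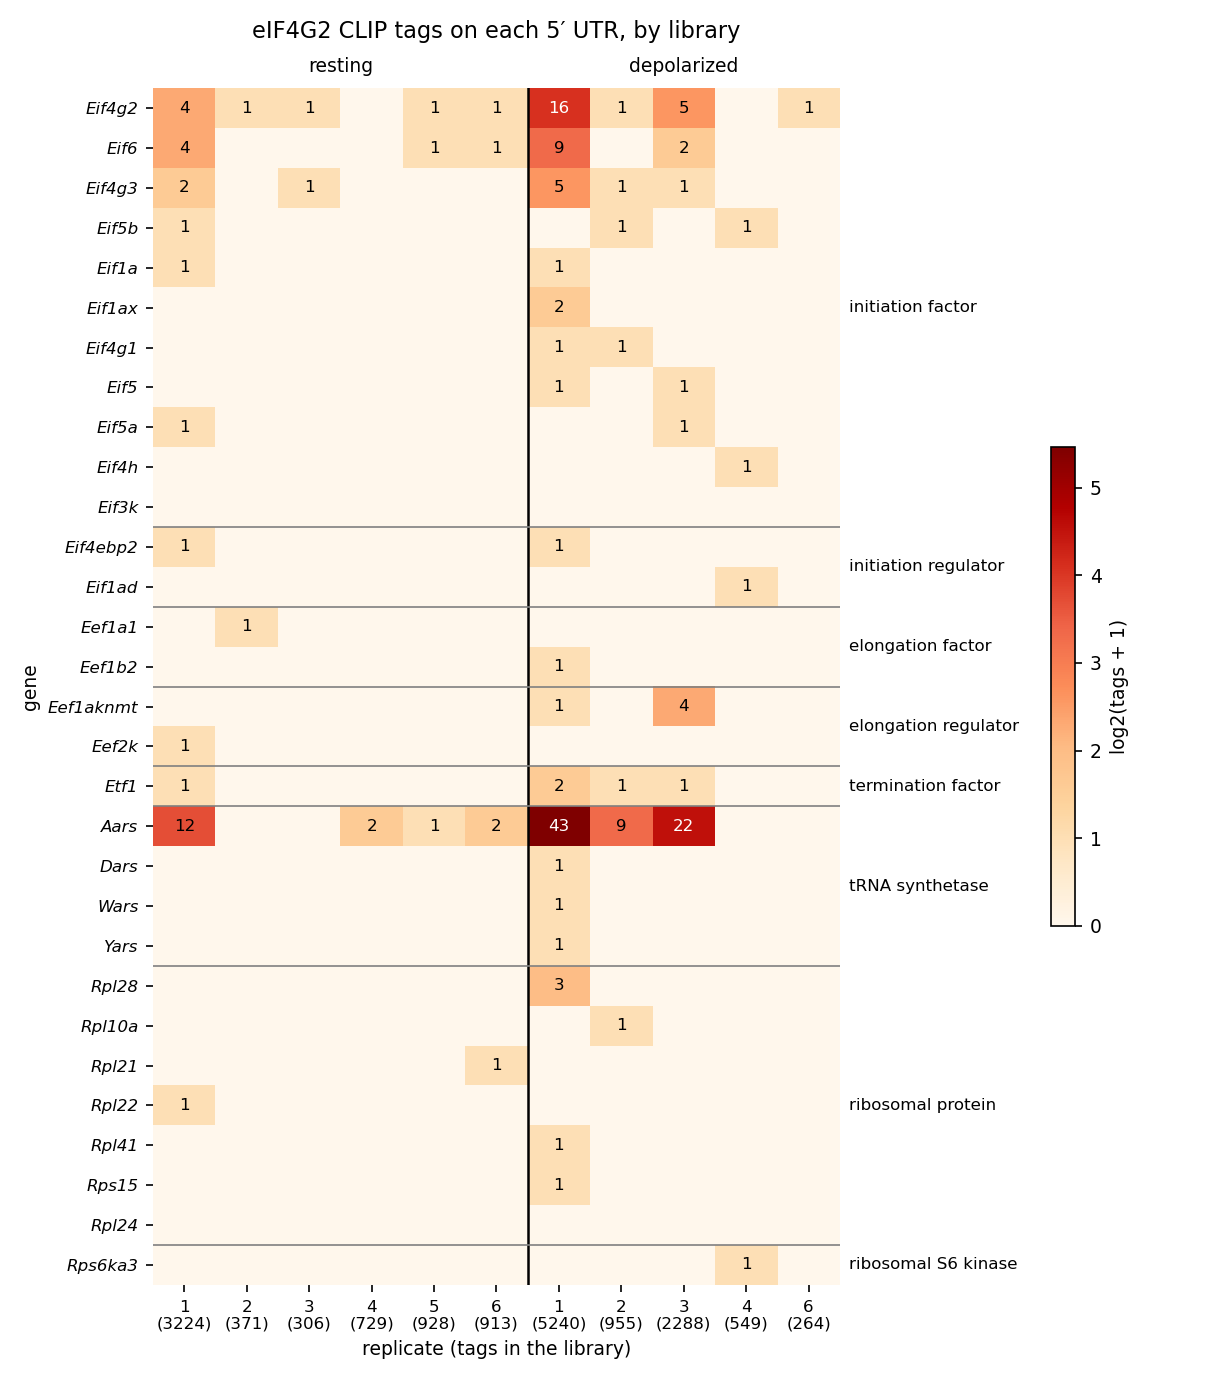
Tags on the 5′ UTR of 30 of the 31 genes (rows, grouped by role) in each of the 11 libraries (columns, with the total tags of the library in brackets). Cells show the tag count, blank cells are 0, and colour gives log2(tags + 1). Aars and Eif4g2 were tagged in 7 and 9 libraries, more than any other gene shown.

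Among the initiation factors, Eif4g2 itself was the most heavily tagged. Its 5′ UTR (gene at chr7:111067750-111083030, minus strand, GRCm38) held 4, 1, 1, 0, 1 and 1 tags in the resting libraries (replicates 1 to 6), and 16, 1, 5, 0 and 1 tags in the depolarized ones (replicates 1, 2, 3, 4 and 6). The mRNA of the immunoprecipitated protein was therefore tagged in 9 of 11 libraries, with the highest counts in the deep libraries. Scaled to library depth, as tags per 1000000 tags on 5′ UTRs (CPM), it stood at a resting mean of 1563 ± 1199 (SD, n = 6) and a depolarized mean of 2015 ± 1520 (SD, n = 5). The groups overlapped, and the pairs went both ways, from 1241 to 3053 CPM in replicate 1 but from 3268 to 2185 in replicate 3. By edgeR's quasi-likelihood test the log2 fold change was 0.90 (SE 0.99, adjusted P = 0.862). In all comparisons, more binding by eIF4G2 and more of the mRNA in the cells cannot be told apart without an input library, and in these whole cultures neither can more cells of a type and more RNA per cell.

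Eif6, which keeps the large ribosomal subunit from joining too early, had 4, 0, 0, 0, 1 and 1 tags at rest and 9, 0, 2, 0 and 0 after depolarization. Most of its 17 tags came from the replicate 1 pair, and the groups overlapped. Its level was 569 ± 626 CPM (SD, n = 6) at rest and 518 ± 770 CPM (SD, n = 5) after depolarization. The mean CPM was thus slightly lower after depolarization, whereas the fitted log2 fold change was 0.23 (SE 1.04, edgeR adjusted P = 0.974). Its sign turned when resting replicate 4 was left out (-0.0087).

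Eif4g3, a cap-complex scaffold related to Eif4g2, had 2, 0, 1, 0, 0 and 0 tags at rest and 5, 1, 1, 0 and 0 after depolarization. All 10 of its tags lay in replicates 1 to 3. The level was 648 ± 1307 CPM (SD, n = 6) at rest and 488 ± 502 CPM (SD, n = 5) after depolarization, and the resting mean rested on 1 tag in the shallow resting replicate 3. The mean CPM was lower after depolarization, whereas the fitted log2 fold change was 0.62 (SE 1.16, edgeR adjusted P = 0.908). The third scaffold of this family, Eif4g1, had 2 tags, 1 each in depolarized replicates 1 and 2.

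Eif5b, the GTPase that joins the ribosomal subunits, had 3 tags, 1 each in resting replicate 1 and in depolarized replicates 2 and 4. Its mean was 51.7 ± 127 CPM (SD, n = 6) at rest and 574 ± 832 CPM (SD, n = 5) after depolarization, a difference made of single tags. Eif1a and Eif1ax encode near-identical factors for start codon scanning, but their 5′ UTRs differ in length (353 and 222 bases) and GC content (54.7 and 70.7%). Whether tags were split between them was not tested, and they had 2 tags each. So did Eif5, which triggers GTP hydrolysis at the start codon, and Eif5a, which helps ribosomes through difficult peptide bonds. Eif4h, a helper of the helicase eIF4A, had 1 tag, and Eif3k, a subunit of the eIF3 complex, had 0.

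The 11 initiation factors together held 20 resting and 52 depolarized tags. Their share of a library's tags was 0.403, 0.270, 0.654, 0, 0.216 and 0.219% over the 6 resting replicates and 0.668, 0.419, 0.437, 0.364 and 0.379% in depolarized replicates 1, 2, 3, 4 and 6. The means were 0.293 ± 0.219% (SD, n = 6) and 0.453 ± 0.123% (SD, n = 5), a difference of 0.160 percentage points that lay within the spread between libraries. The share was higher after depolarization in 4 of the 5 replicate pairs. A library with 0 tags still allows up to 3, which is 0.412% in resting replicate 4.

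Among the aminoacyl-tRNA synthetases the tags lay almost entirely on Aars, which encodes the cytoplasmic enzyme that charges tRNA with alanine (chr8:111033144-111057664, plus strand). Aars held 91 of the 94 tags of this class, and Dars, Wars and Yars, for aspartate, tryptophan and tyrosine, had 1 tag each, all in depolarized replicate 1. Aars ranked 11th of all listed 5′ UTRs by tags, 29th at rest and 8th after depolarization. Per kilobase of 5′ UTR it had 238 tags, 30th of 3335, ahead of Eif4g2 with 93.4 tags per kilobase, against a median of 6.99 over all.

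Aars had 12, 0, 0, 2, 1 and 2 tags across the 6 resting replicates. It had 43, 9, 22, 0 and 0 tags in depolarized replicates 1, 2, 3, 4 and 6. The tags were many in the first 3 depolarized libraries, absent in the last 2, and few at rest apart from replicate 1. The replicate pairs went in opposite directions: from 3722 to 8206 CPM in replicate 1, from 0 to 9424 in replicate 2 and from 0 to 9615 in replicate 3, but from 2743 to 0 in replicate 4 and from 2191 to 0 in replicate 6.

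The means were 1622 ± 1520 CPM (SD, n = 6) at rest and 5449 ± 5004 CPM (SD, n = 5) after depolarization, and the groups overlapped. With the spread between libraries taken into account, the difference did not pass (log2 fold change 1.71, SE 1.07, edgeR adjusted P = 0.661). Within replicates 1 to 3 the means were 1241 ± 2149 CPM (SD, n = 3) and 9082 ± 764 CPM (SD, n = 3). Within replicates 4 to 6 they were 2004 ± 848 CPM (SD, n = 3) and 0 CPM in both depolarized libraries. The difference between these sets of replicates was not tested. The depolarized libraries of replicates 4 and 6 held only 549 and 264 tags, so a count of 0 allows up to 5464 and 11364 CPM, and the 0 counts in resting replicates 2 and 3 allow up to 8086 and 9804 CPM.

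**Figure D2:**
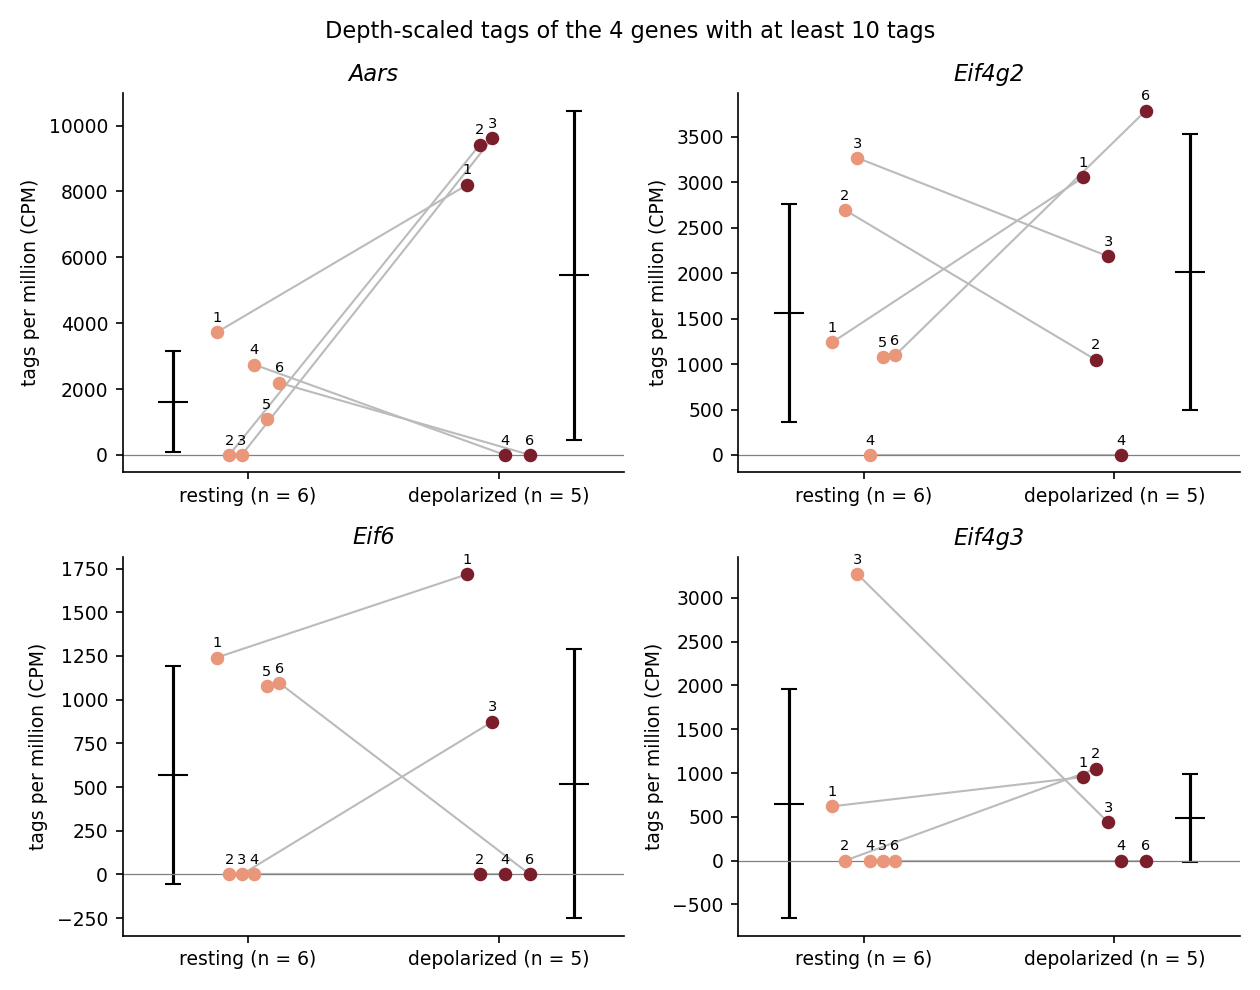
CPM of Aars, Eif4g2, Eif6 and Eif4g3 in each library, resting on the left and depolarized on the right of each panel, numbered by replicate. Grey lines join libraries of the same replicate number, and black bars give the mean and SD. For Aars the lines of replicates 1, 2 and 3 rise and those of 4 and 6 fall to 0, and for the other 3 genes the lines cross.

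The 5′ UTRs of genes with a ribosomal protein symbol carried few tags in either condition. The 8 listed genes had 9 tags in all, 2 resting and 7 depolarized. Rpl28 had 3 tags, all in depolarized replicate 1, and Rpl10a, Rpl21, Rpl22, Rpl41 and Rps15 had 1 each. Rpl22 has an annotated 5′ UTR of only 17 bases, so its 1 tag, in resting replicate 1 (mean 51.7 ± 127 CPM, SD, n = 6), amounted to 58.8 tags per kilobase, the third highest of the 31 genes.

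The share of tags on ribosomal proteins was 0.0310% in resting replicate 1, 0.110% in resting replicate 6 and 0% in the other resting libraries. After depolarization it was 0.115% in replicate 1, 0.105% in replicate 2 and 0% in replicates 3, 4 and 6. The means were 0.0234 ± 0.0440% (SD, n = 6) and 0.0438 ± 0.0601% (SD, n = 5), a difference of 0.0204 percentage points well within the spread. Counts of 0 to 6 tags per library cannot show a difference of this size. Ribosomal protein and elongation factor genes have many processed pseudogenes, and how multiply mapping reads were treated is not given in the sources used here, so their counts are uncertain.

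The elongation and termination factors were also sparsely tagged. Eef1a1, which carries aminoacyl-tRNA to the ribosome, had 1 tag, in resting replicate 2 (mean 449 ± 1100 CPM, SD, n = 6), and Eef1b2, its exchange factor, had 1 tag, in depolarized replicate 1. Etf1, the release factor that reads stop codons, had 5 tags, 1 in resting replicate 1 and 2, 1 and 1 in depolarized replicates 1, 2 and 3. The resting mean of Etf1 was 51.7 ± 127 CPM (SD, n = 6) and the depolarized mean 373 ± 429 CPM (SD, n = 5), and the groups overlapped.

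Eef1aknmt, a methyltransferase that modifies eEF1A, had 0 tags in all resting libraries and 1 and 4 tags in depolarized replicates 1 and 3. Its mean after depolarization was 388 ± 765 CPM (SD, n = 5). This lies below the limit that a count of 0 allows in each resting library, and no fold change is given. Eef2k, the calcium-activated kinase that slows elongation, had 1 tag, at rest. Eif4ebp2, the repressor of the cap-binding protein that is common in neurons, had 1 tag in each replicate 1 library.

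Across conditions, 9 of the 29 tagged genes had tags in both groups, 16 only in depolarized libraries and 4 only at rest. The depolarized libraries also held more tags in all, 9296 against 6471. After scaling the sums to equal totals, 22 of the 29 (75.9%) lay above 0 on the log2 scale, against 52.7% of all 3280 5′ UTRs with a tag. Of the 29, 15 had 1 tag (51.7%, against 41.9% of all), and the direction of a single tag carries no information on a change.

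Only 4 of the 31 genes had the 10 tags over all libraries that the edgeR fit required, and 0 of them were called higher or lower at an adjusted P below 0.05. At an unadjusted P below 0.05 the number was also 0. Over all 317 5′ UTRs tested the background was 0.0% called in either direction, and at the unadjusted level 7.57% higher and 0.315% lower. The median log2 fold change was 0.76 over the 4 genes and 0.52 over all 317. DESeq2 and limma also called 0 of the 317 at an adjusted P below 0.05, and at an unadjusted P below 0.05 they gave 2 higher and 2 lower, and 43 higher and 0 lower.

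The study applied binomial tests to depth-normalized tags. Here tags were summed per condition, and the sums were scaled to equal totals and compared with a two-sided exact binomial test at P below 0.2. By this test 3 genes were higher after depolarization (Aars, Eif4g2 and Eef1aknmt) and 0 were lower. Of all 3280 5′ UTRs with a tag 5.21% were higher and 4.51% lower. A 5′ UTR needs 5 tags to be able to pass as higher and 3 to pass as lower. Of the 729 that had enough tags 23.5% were higher, and of the 1293 with enough tags for the other direction 11.4% were lower. Among the genes described here 6 could have passed as higher and 8 as lower. Read against 23.5%, a count of 3 of 6 genes is no result about them.

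Aars gave 17 resting and 74 depolarized tags, a pooled log2 fold change of 1.59 (two-sided exact binomial P = 4.97e-06, 0.00109 after Benjamini-Hochberg adjustment over 3280 5′ UTRs). The ratio of rates was 3.03 with an exact 95% interval of 1.77 to 5.48 that covers counting error only. For Eif4g2, with 8 and 23 tags, the log2 fold change was 0.99 (exact binomial P = 0.0987), with a ratio of 2.00 with an interval of 0.864 to 5.18. Eef1aknmt gave 0 and 5 tags (exact binomial P = 0.125). The pooled test has no term for the spread between libraries. The edgeR fit, which has one, called neither Aars nor Eif4g2, and Eef1aknmt had too few tags to enter it.

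When the comparison was made within replicate numbers, which pair the resting and depolarized samples that were processed together, 1 gene passed, Aars (exact P = 0.00204, which covers counting error only, with the level higher after depolarization in 3 of 5 pairs and lower in 2). The edgeR fit with the same pairing gave Aars a log2 fold change of 1.33 and an adjusted P of 0.997. Eif4g2 (exact P = 0.223) and Eef1aknmt (exact P = 0.569) did not. Within replicates 1 to 3 alone the pooled test passed Aars and Eef1aknmt, and within replicates 4 to 6 alone it passed 0 genes. Without depolarized replicate 1 Eif4g2 no longer passed, and without resting replicate 1 or without depolarized replicate 3 Eef1aknmt no longer passed. Aars passed with any 1 library left out.

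**Figure D3:**
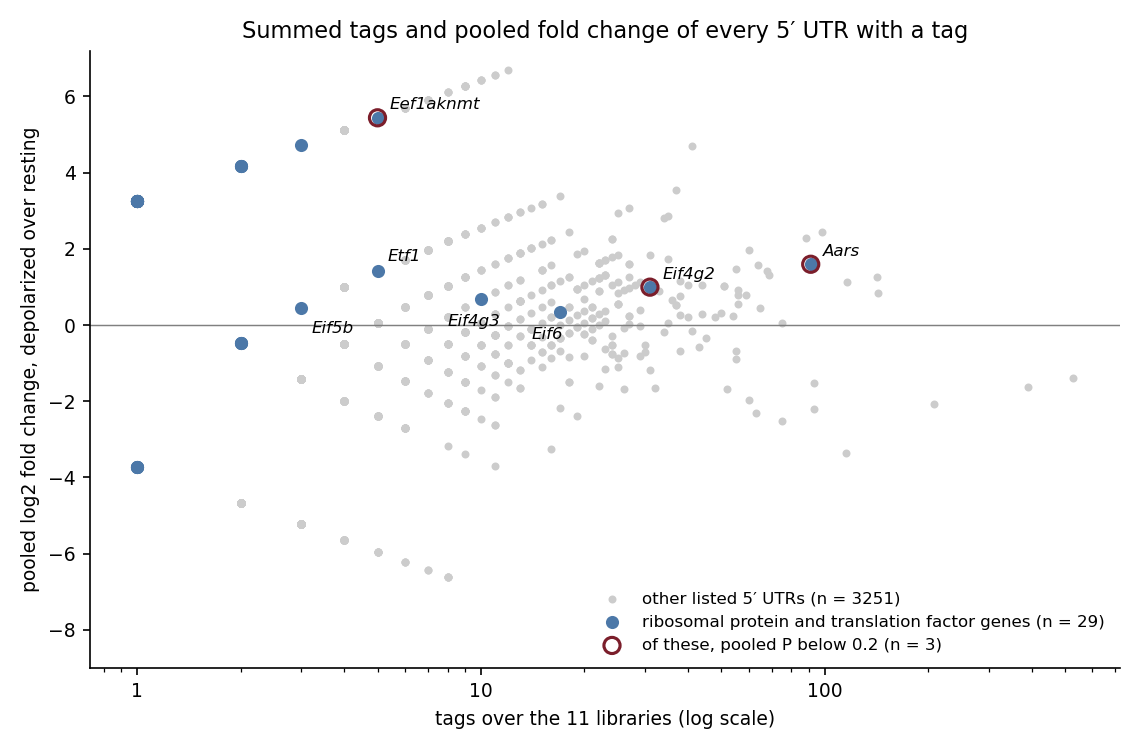
Pooled log2 fold change (depolarized over resting, pseudocount 0.1) against the tags summed over the 11 libraries (log scale) for the 3280 5′ UTRs with a tag. Blue points are the 29 tagged genes of the translation machinery, and circled points are the 3 with an exact binomial P below 0.2; Aars lies at 91 tags and 1.59.

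Taken as a group, the 31 genes held 0.900, 0.539, 0.654, 0.274, 0.323 and 0.548% of the tags over the 6 resting replicates and 1.76, 1.57, 1.62, 0.729 and 0.379% in depolarized replicates 1, 2, 3, 4 and 6. The first 3 depolarized libraries stood above every resting library, and the last 2 lay within the resting range. The means were 0.540 ± 0.228% (SD, n = 6) and 1.21 ± 0.616% (SD, n = 5). The difference was 0.671 percentage points over all libraries (pooled SD 0.444), 0.9505 within replicates 1 to 3 and 0.172 within replicates 4 to 6.

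Aars made up a large part of this difference, 0.383 of the 0.671 percentage points. Without it the other 30 genes had a mean share of 0.377 ± 0.243% (SD, n = 6) in resting and 0.6653 ± 0.2002% (SD, n = 5) in depolarized libraries. Their share was higher in the depolarized library in 5 of 5 pairs, the smallest step being from 0.654 to 0.656% in replicate 3. These pairs hold few tags, with 2 resting tags in replicate 3, 0 in replicate 4 and 1 depolarized tag in replicate 6. With Aars included the share was higher in 4 of 5 pairs, and it fell from 0.548 to 0.379% in replicate 6. No P value is given for these shares, because the genes were chosen with earlier results of these data known.

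**Figure D4:**
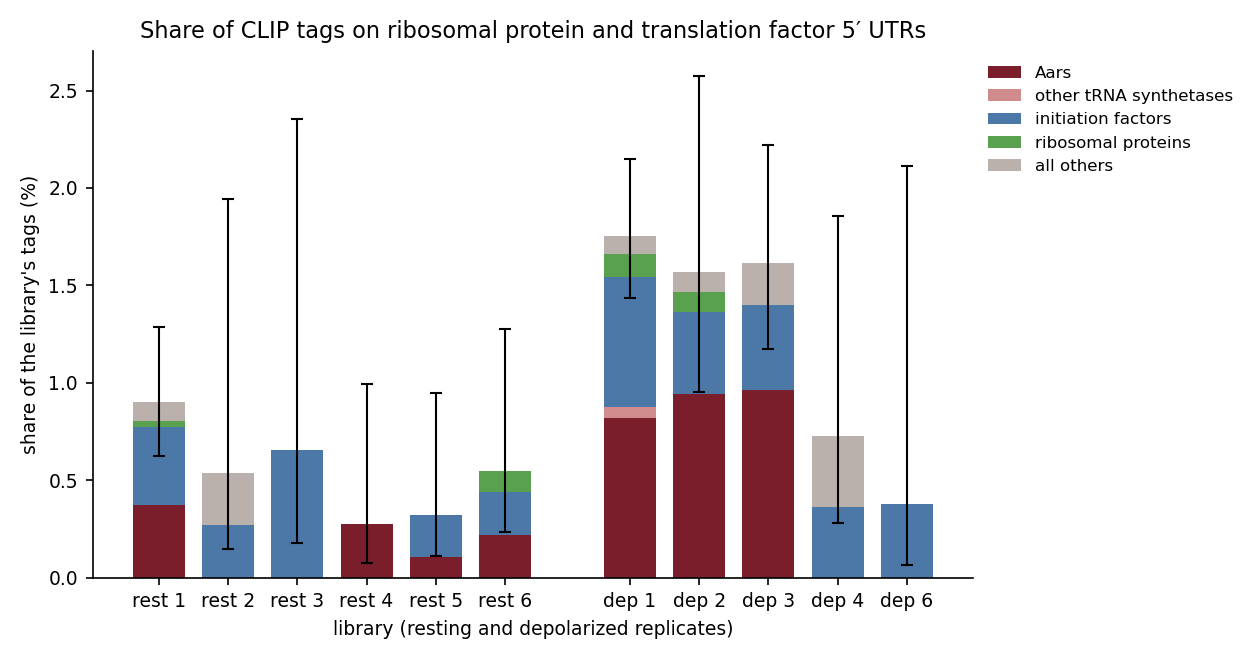
Share of each library's tags (%) on the 31 5′ UTRs, stacked by Aars, the other tRNA synthetases, initiation factors, ribosomal proteins and all others. Error bars are Wilson 95% intervals of the whole share and cover counting error only. Depolarized replicates 1, 2 and 3 reach 1.57 to 1.76%, and all other libraries stay at or under 0.900%.

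Other genes of the translation apparatus were described from a list of 72, among them poly(A)-binding proteins, mTOR pathway members and regulators of mRNA use. Of these 20 were listed and 18 had a tag, with 35 resting and 49 depolarized tags. Of these, 3 had enough tags to pass the pooled test as higher and 6 as lower. By this test 1 of the 3 was higher, beside 23.5% of all 5′ UTRs with enough tags. It was Cpeb4, an RNA-binding protein that governs poly(A) tails, with 5 resting and 18 depolarized tags (log2 fold change 1.31, exact binomial P = 0.0784, edgeR adjusted P = 0.854). By the same test 2 of the 6 were lower, beside 11.4% of all with enough tags: Rptor, the mTOR scaffold, and Eprs, the synthetase for glutamate and proline, each with 3 resting and 0 depolarized tags (exact binomial P = 0.125). Both had just the 3 tags needed to pass, so the calls end without any 1 of the libraries that hold them.

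Genes for ribosome biogenesis were hardly tagged. Of a list of 84, 9 were listed, with 7 resting and 3 depolarized tags. None had more than 2 tags, so none could have passed the pooled test. Of the 6 listed neuronal markers 2 were higher after depolarization in the pooled test and 0 lower. Only 3 of them (Syt1, Map2 and Rbfox3) had the 5 tags needed to pass as higher, beside 23.5% of all 5′ UTRs with enough tags. The median pooled log2 fold change of the 6 was 0.25, against 0.33 over all. Syt1, a synaptic vesicle protein, had 40 resting and 103 depolarized tags (exact binomial P = 0.00142), and Map2, a dendritic microtubule protein, had 2 and 13 (exact binomial P = 0.0225). Of the others, Rbfox3 had 2 and 3 tags, Gad1 had 1 and 2, and Slc17a7 and Gad2 each had 1 and 0. Neither Syt1 nor Map2 passed in edgeR (adjusted P = 0.908 and 0.660), and the part of neuronal mRNA content in the differences above was not tested.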

How the data were processed

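Tags on 5′ UTRs were analysed from eIF4G2 CLIP libraries of resting and depolarized mouse cortical neurons. The authors filtered, demultiplexed, trimmed and collapsed the reads, aligned them to mm10 with Rsubread and deposited raw tag counts per 5′ UTR of the longest UCSC transcript, neither pooled nor normalized. The treatment of multiply mapping reads and the choice of listed 5′ UTRs are not given in the sources used here. 1 entry without a gene name, with 0 tags, was left out. Of 3366 named 5′ UTRs 3354 matched a GENCODE M21 gene and 3335 had a 5′ UTR sequence, all 31 of the genes described among them. Symbols were matched by name, with Eef1aknmt found under its synonym Mettl13.

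The libraries held 264 to 5240 tags. The genes and lists were chosen with earlier results of these data known. edgeR 4.0.16 (R 4.3.3) was run with TMM factors, library sizes over all listed 5′ UTRs, a minimum of 10 tags over all libraries and Benjamini-Hochberg adjustment over all tested. The pooled test scaled summed tags to the mean total, used a pseudocount of 0.1 for the fold change and a two-sided exact binomial test at P below 0.2. DESeq2 1.42.0, limma 3.58.1, other minimums, scalings and thresholds, subsets of replicates and each library left out were alternatives. Both tests were first tested on simulated counts far deeper than these libraries, which does not show how they perform at the depth here. Replicate numbers were taken as pairs, since the labels say that the resting and depolarized samples of a replicate were pooled after reverse transcription. Deviations from the group means correlated at 0.154 to 0.314 in the 5 pairs over 317 5′ UTRs. Unmatched replicate numbers were not compared, so these values do not show that pairs are more alike than other libraries.

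Genes named with full values were Eif4g2, Eif5b, those with at least 10 tags, those passing the pooled test, and the 5 highest by CPM in each condition and by tags per kilobase. The values of 1 of the 31 genes are not reported here, and it is counted in the totals. Shares carry Wilson 95% intervals. Duplicates were collapsed by sequence, so intervals and the limit of 3 counts for a count of 0 cover counting error only. The adjusted P values of edgeR measure the spread between these libraries, which may be technical, and those of the exact tests on tags cover counting error only. The paper, the series text and the labels give different numbers of replicates, and the labels were followed. Python 3.11.15 with scipy 1.17.1 and matplotlib 3.10.9 was used for the remainder.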

Additional observations from a re-analysis of the deposited data

Results flagged for a closer look

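Of 20 groups of libraries examined for 1 library far from the others, 5 had one, where chance gives about 1 in 20 groups (1.0 here). The groups share libraries, so these are not independent.

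Resting replicate 3 had 3268 CPM on Eif4g3, far above the next resting library at 620 CPM, from 1 tag in the shallowest resting library. Resting replicate 1 had 310 CPM on Eif5b, where all other resting libraries had 0, again from 1 tag. Resting replicate 6 had 0.110% of its tags on ribosomal protein 5′ UTRs, from 1 tag, and the next resting library 0.0310%. Depolarized replicate 1 had 0.668% of its tags on initiation factor 5′ UTRs, above the other depolarized libraries, which reached 0.437%. Resting replicate 1 held 3224 tags, against 928 in the next resting library.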

How the results depend on the processing

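In 23 alternatives edgeR, DESeq2 or limma called 0 of the genes tested higher and 0 lower, those with each library left out included. Most of these tested 2 to 4 of the 31 genes, the fit with no minimum tested 29, that with a minimum of 5 tags tested 6, and within replicates 4 to 6 only 0 could be tested. Over all 5′ UTRs tested, 7 of 108 were called higher without replicate 1 of both conditions and 2 of 178 without depolarized replicate 1. Within replicates 4 to 6 only, 1 of 24 was called lower, and the other fits called 0 or 1. The fitted log2 fold changes of Aars (0.86 to 2.21), Eif4g2 (0.50 to 1.13) and Eif4g3 (0.14 to 0.78) kept their sign wherever a fit could be made, and that of Eif6 turned to -0.0087 without resting replicate 4, with an edgeR adjusted P of 1.00. The 3 genes that passed the pooled test as higher became 0 within replicates 4 to 6 only, 1 at P below 0.05, 1 at an adjusted P below 0.05 and 1 with the replicate block, in the last 3 settings Aars each time. Leaving out each library in turn gave 2 to 3, and 0 genes passed as lower in all 21 alternatives.

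The difference in share of tags (depolarized minus resting, percentage points) was 0.534 to 0.878 for the 31 genes with each library left out and 0.172 within replicates 4 to 6 only, 0.00275 to 0.0376 and -0.0365 for ribosomal proteins, and 0.101 to 0.232 and 0.227 for initiation factors. Within replicates 1 to 3 only it was 0.9505, 0.0627 and 0.0658 for these sets in turn. Within the 5 complete pairs, a replicate block added after seeing the data, the difference for the 31 genes was 0.627. In edgeR the replicate block changed no call, and the log2 fold change of Aars was 1.33. The number of genes with CGCGGC was 8 with the longest 5′ UTR of each gene and 11 with any annotated 5′ UTR, and that with a TOP start 3 with any annotated start and 4 within the first 5 bases. The cause of these shifts was not tested. Depth limits the comparison: 15 of the 31 genes had 1 tag.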
